A study of Mus musculus with 18 samples.

Results

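Long non-coding RNAs (lncRNAs) were described at the upper end of their levels in mouse colon organoids, epithelium cultured as hollow bodies in a gel and sequenced in bulk. Members were chosen by their measured level: the table gave the biotype lncRNA and at least 5 FPKM (fragments per length of gene and size of library) in at least 3 of the 18 libraries. This rule kept 115 of 11288 lncRNA genes in a table of 56748 genes. The organoids came from the distal, mid or proximal mouse colon, and each region was kept in differentiation medium or in a proliferative control medium (ENR with conditioned medium holding Wnt3a), applied 3 days after passaging per the labels. This gave distal differentiation, distal control, mid differentiation, mid control, proximal differentiation and proximal control groups, with 3 libraries in each of the 6 groups. Strain, sex and age are not given in the sources used here, nor is whether replicates are separate animals or cultures of one animal, so the p-values measure only the spread between these samples.

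A lncRNA is a transcript that is not translated into a protein, and its function, where one is known, lies in the RNA itself, in the act of its transcription or in a small RNA cut from it. Some stay in the nucleus and organise bodies there, some are precursors whose introns hold small nucleolar RNAs (snoRNAs, guides for modifying ribosomal RNA) or microRNAs (miRNAs), and others start beside or run antisense to a protein-coding gene. The Hox clusters, whose genes are ordered along the chromosome as they are used along the body axis, carry several lncRNAs between and against their genes. One of them, Hottip at the 5′ end of the HoxA cluster, is known from human cells to bind WDR5 and to keep the 5′ HoxA genes active.

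Depth, recovered from the FPKM as whole reads, was 12827751 to 19938198 reads per library. All 7 epithelial markers were detected, with a summed level of 2230 to 7392 FPKM per library. No gene of the fibroblast, endothelial, tuft or neural and muscle lists reached 1 FPKM in any library. Only 1 of 5 immune genes did, and that list summed to 0.277 to 3.52 FPKM. Mitochondrial genes took 3.99% to 5.57% of reads in distal differentiation and 2.16% to 2.99% in distal control libraries, 4.25% to 4.93% in mid differentiation and 2.26% to 2.67% in mid control libraries, and 2.46% to 2.79% in proximal differentiation and 2.01% to 2.09% in proximal control libraries. Of the proximal differentiation libraries, replicate 1 was the one closest to the control libraries, with proliferation markers (Mki67, Top2a and Mcm3) summing to 36.8 FPKM against a group median of 4.76 FPKM. In bulk RNA, fewer cells of a type and less RNA per cell cannot be told apart.

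The 115 lncRNAs spanned a wide range of levels. Mean FPKM over the 18 libraries ran from 2.04 to 93.8 with a median of 5.27, and 10 had a mean of at least 20. Together they held 0.268% to 0.338% of reads in distal differentiation and 0.321% to 0.331% in distal control libraries, 0.281% to 0.299% in mid differentiation and 0.311% to 0.330% in mid control libraries, and 0.315% to 0.354% in proximal differentiation and 0.410% to 0.438% in proximal control libraries. The 10 with the highest means took 49.3% to 64.8% of these reads, and Malat1 and Neat1 alone 17.9% to 45.0%. Gene length ran from 96 to 21163 bases with a median of 1430. Most are little characterised: 40 carry only a Gm number, 19 a Rik clone name and 30 only an Ensembl identifier.

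The rule used the levels themselves, so which libraries let a lncRNA in matters for every count that follows. Of the 115, 22 reached 5 FPKM in all 18 libraries, 44 did so in differentiation medium alone, 10 in control medium alone and 61 in both media. By region, 68 reached it in all 3 regions, 29 in mid and distal but in no proximal library, 6 in proximal libraries alone, 2 in mid alone and 1 in distal alone. At the edge of the rule, the third-highest FPKM was 5.11 for 9130209A04Rik, 5.08 for Gm28901 and 5.01 for Mir17hg just inside it, and 4.998 for Gm20442, 4.95 for Gm20559 and 4.89 for 2010016I18Rik just outside it.

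Comparisons were made with limma on log2(FPKM + 1) over the 12896 genes that reached 1 FPKM in at least 3 libraries, with Benjamini-Hochberg adjustment over all of them, and a gene was called at an adjusted p under 0.05. In differentiation against control medium, 83 of the 115 lncRNAs were called in distal organoids, beside 62.9% of all tested genes, with 56 higher (31.6% of all) and 27 lower (31.3%). In mid organoids 90 were called, beside 63.5%, with 63 higher (31.5% of all) and 27 lower (32.0%). In proximal organoids 74 were called, beside 53.8%, with 46 higher (27.6% of all) and 28 lower (26.2%). With the libraries scaled to their summed reads, which moves the median of all tested genes by -0.34 in distal, -0.33 in mid and -0.25 in proximal organoids on the log2 scale, 48 were higher and 31 lower in distal organoids, beside 18.6% and 47.3% of all tested genes. The splits were then 49 higher and 35 lower in mid organoids (19.2% and 46.6% of all) and 31 higher and 34 lower in proximal organoids (18.5% and 40.2% of all). The lncRNAs that passed the rule in differentiation medium alone had to differ, and in distal organoids they made up 41 of the 56 called higher. Among the 22 at or above 5 FPKM in every library, 8 were higher and 6 lower in distal, 8 and 6 in mid, and 9 and 6 in proximal organoids.

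Between regions the counts were smaller. Distal against proximal organoids in control medium gave 20 called lncRNAs, beside 10.5% of all tested genes, with 8 higher (5.57% of all) and 12 lower (4.98%). The same comparison in differentiation medium gave 53, beside 29.9%, with 32 higher (15.6% of all) and 21 lower (14.3%). Mid against proximal organoids gave 65 in differentiation medium, beside 29.4%, with 42 higher (15.6% of all) and 23 lower (13.7%). In control medium it gave 26, beside 13.3%, with 11 higher (7.99%) and 15 lower (5.28%). Without proximal differentiation replicate 1 the differentiation medium counts were 47 for distal and 57 for mid against proximal organoids. The share of all tested genes was then 28.1% in each. Distal against mid organoids gave 0 lncRNAs in control medium by limma and 0 by voom, with 10 at an unadjusted p under 0.05, beside 0.326% of all tested genes. In differentiation medium that comparison gave 2, beside 0.690%, with 1 higher (0.209% of all) and 1 lower (0.481%).

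**Figure D1:**
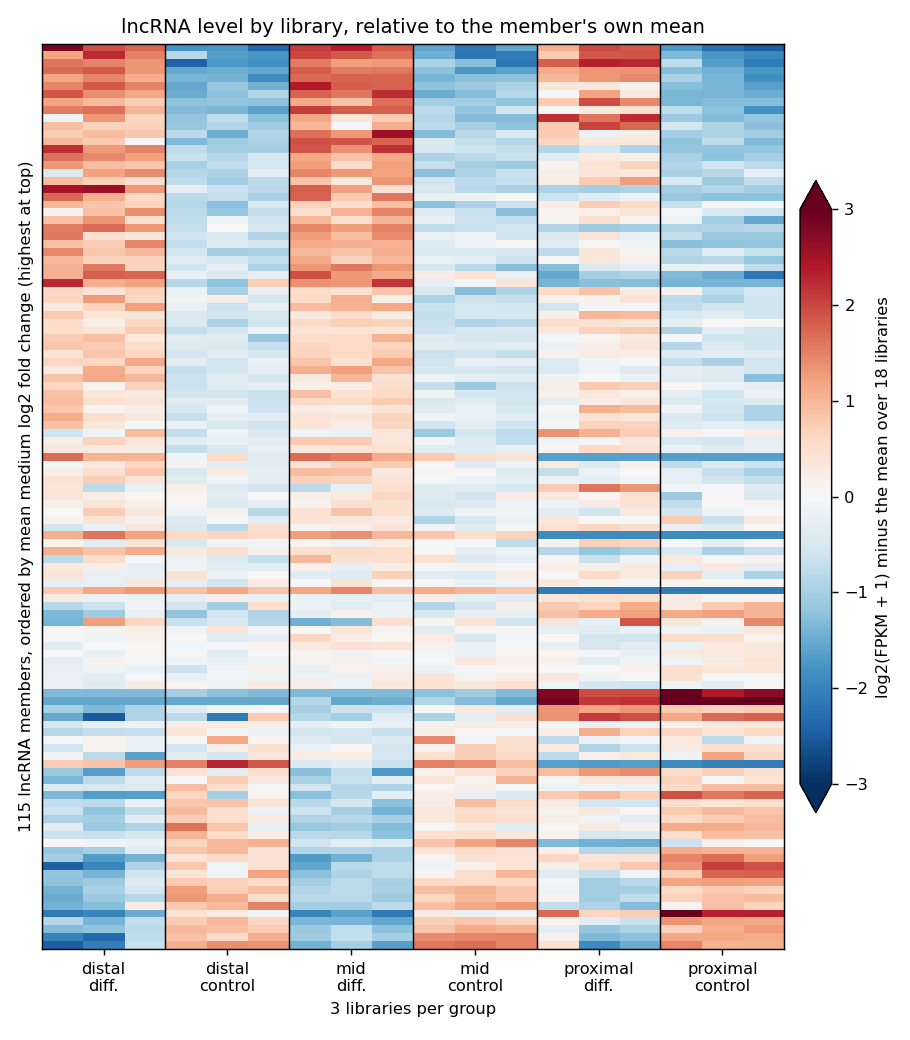
Level of each of the 115 lncRNAs (1 per line) in each of the 18 libraries (columns), shown as log2(FPKM + 1) minus the mean of that lncRNA over all libraries, with lncRNAs ordered by their mean log2 fold change between media. Columns run from distal differentiation and distal control through mid to proximal differentiation and proximal control. The split between media, visible in all 3 regions, follows in part from this ordering and from the rule for members.

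The neighbours of Hox genes included lncRNAs detected on 1 side of the colon alone. Within 100 kb of a Hox gene, counted between the lower coordinates of both genes, lay 28 lncRNA genes: 9 at HoxA, 7 at HoxB, 4 at HoxC and 8 at HoxD. Of these 28, 10 could be tested and 5 passed the rule: Hottip and Hoxa11os at HoxA, and Gm11538, Gm53 and Hoxb5os at HoxB. Hottip, Hoxa11os and Gm11538 were detected in distal and mid organoids and had 0 reads in all 6 proximal libraries, while Hoxb5os was high in proximal organoids and at or near 0 elsewhere. Gm53 was present everywhere. The other members near Hox genes reached 5 FPKM on 1 side of the colon alone. Their regional directions use the values that chose them and are given as a description. Where a group had 0 reads, the fold is a lower bound against 3 reads over that group, and it covers counting error only.

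Of the 5 Hox neighbours, Hottip and Hoxa11os have a promoter window in the table used here, and both are printed because they lay at the 5′ end of HoxA and were undetected in proximal organoids. The windows are those of RefSeq on build GRCm38.p6, 300 bases around the annotated start, at chr6:52262525-52262824 on the plus strand for Hottip and chr6:52244993-52245292 on the plus strand for Hoxa11os. Capitals mark TTTAT on either strand, the core of binding motifs of posterior Hox and Cdx factors.
Hottip: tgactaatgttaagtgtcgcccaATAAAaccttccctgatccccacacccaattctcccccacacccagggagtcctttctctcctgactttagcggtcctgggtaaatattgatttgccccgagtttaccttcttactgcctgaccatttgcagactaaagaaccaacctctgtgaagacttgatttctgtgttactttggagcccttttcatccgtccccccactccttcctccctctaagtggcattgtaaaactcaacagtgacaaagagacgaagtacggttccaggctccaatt
Hoxa11os: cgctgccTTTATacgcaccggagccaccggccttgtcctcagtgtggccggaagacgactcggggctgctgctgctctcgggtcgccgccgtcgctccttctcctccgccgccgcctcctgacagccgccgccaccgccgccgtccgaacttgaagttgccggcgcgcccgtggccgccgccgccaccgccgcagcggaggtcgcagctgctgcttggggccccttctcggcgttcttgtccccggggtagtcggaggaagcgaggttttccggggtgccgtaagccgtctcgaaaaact
Each window held 1 match. The same letters were found in 40.7% of the 54 windows of the 115 lncRNAs and in 40.0% of all 32851 windows, so a match is common and describes these letters only.

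Hottip (chromosome 6, 52239760 to 52244588, plus strand, mm39, ENSMUSG00000055408) lies on the other strand from Hoxa13, with the lower coordinates of both genes 5086 bases apart. Its level was 8.91, 5.29 and 5.23 FPKM in distal differentiation libraries, against 1.81, 3.59 and 1.48 FPKM in distal control libraries. In mid organoids it was 8.91, 8.10 and 5.66 FPKM in differentiation and 4.33, 3.30 and 2.99 FPKM in control libraries. The 2 media did not overlap in either region, and no read was counted in any proximal library. Hottip was higher in differentiation than in control medium in distal (log2 fold change 1.20 ± 0.22 SE, adjusted p = 0.000269) and mid organoids (0.91 ± 0.22, adjusted p = 0.0024). It reached 5 FPKM in differentiation libraries alone, so this direction was fixed by the choice of members. Distal exceeded proximal organoids at least 291-fold in differentiation medium and at least 119-fold in control medium, and mid exceeded proximal organoids at least 339.9-fold and 183-fold in the same media. Hoxa13, the posterior-most gene of the cluster, averaged 52.1 ± 2.28 FPKM in distal differentiation, 19.7 ± 2.66 in distal control, 53.3 ± 2.10 in mid differentiation and 20.2 ± 0.605 in mid control libraries (SD, n = 3), and it too was at 0 in both proximal groups.

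Hoxa11os (chromosome 6, 52221373 to 52226779, plus strand, mm39, ENSMUSG00000086427) runs antisense to Hoxa11 and overlaps it. It measured 6.47, 8.56 and 9.54 FPKM in distal differentiation and 6.97, 8.65 and 6.75 FPKM in distal control libraries. The mid values were 8.75, 10.9 and 7.08 FPKM in differentiation and 8.28, 7.61 and 6.55 FPKM in control libraries. All 12 libraries outside the proximal colon thus lay within 6.47 to 10.9 FPKM, and the media overlapped. The medium difference was not called in distal (log2 fold change 0.11 ± 0.15 SE, adjusted p = 0.527) or mid organoids (0.21 ± 0.15, adjusted p = 0.227). Distal exceeded proximal organoids at least 393-fold in differentiation and at least 412-fold in control medium. Hoxa11 itself stood far lower, at 0.495 ± 0.455 FPKM in distal differentiation and 1.41 ± 0.657 FPKM in distal control libraries (SD, n = 3), and it was lower in differentiation than in control medium (log2 fold change -0.70 ± 0.20 SE, adjusted p = 0.0066 in distal, -1.10 ± 0.20, adjusted p = 0.000202 in mid organoids). The labels do not settle if strand was kept, so reads from overlapping genes on opposite strands cannot be told apart.

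At HoxB, Gm11538 (chromosome 11, 96094273 to 96096309, plus strand, mm39, ENSMUSG00000120888) starts 9131 bases from Hoxb13, the most posterior gene. It measured 6.64, 10.1 and 7.48 FPKM in distal differentiation and 4.58, 4.69 and 4.35 FPKM in distal control libraries. Mid libraries held 7.68, 8.50 and 6.20 FPKM in differentiation and 5.58, 4.18 and 4.87 FPKM in control medium, and all proximal libraries 0 reads. Differentiation libraries lay above control libraries in both regions (log2 fold change 0.69 ± 0.14 SE, adjusted p = 0.000412 in distal, 0.52 ± 0.14, adjusted p = 0.00347 in mid organoids). Those 2 calls were lost with the libraries scaled to their summed reads (adjusted p = 0.107 and 0.423). Distal exceeded proximal organoids at least 247-fold in differentiation and at least 159.6-fold in control medium. Hoxb13 averaged 181 ± 44.8 FPKM in distal differentiation, 65.9 ± 12.7 in distal control, 115 ± 7.40 in mid differentiation and 58.5 ± 10.1 FPKM in mid control libraries (SD, n = 3), with 0 in both proximal groups.

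Hoxb5os (chromosome 11, 96181849 to 96197736, minus strand, mm39, ENSMUSG00000085645) lies further along the cluster, on the opposite strand to Hoxb5 and Hoxb6, both of which it overlaps. It measured 16.1, 8.71 and 8.63 FPKM in proximal differentiation and 22.8, 12.1 and 14.9 FPKM in proximal control libraries. Distal control libraries held 0.247, 0.0600 and 0 FPKM, mid control libraries 0.0595, 0.192 and 0 FPKM, and all distal and mid differentiation libraries 0 reads. The proximal values were above every distal and mid value, and the 2 proximal media overlapped. Distal organoids were at least 119-fold and mid organoids at least 141-fold lower than proximal organoids in differentiation medium. In control medium the differences were -3.96 ± 0.22 and -3.98 ± 0.22 on the log2(FPKM + 1) scale. That scale understates them and cannot be set against the bounds. Mean FPKM were 0.102 in distal, 0.0839 in mid and 16.6 in proximal control libraries. The lower value in proximal differentiation than in proximal control libraries (log2 fold change -0.55 ± 0.22 SE, adjusted p = 0.0443) was lost in 9 of the alternatives, among them a pseudocount of 0.1 (adjusted p = 0.295) and leaving out proximal differentiation replicate 2 or 3 or proximal control replicate 1 or 3 (adjusted p = 0.0629 to 0.238). Hoxb6 had the same regional order, with 0.0789 ± 0.0949 FPKM in distal differentiation, 0.196 ± 0.0463 in distal control, 0.118 ± 0.0421 in mid differentiation, 0.0998 ± 0.0716 in mid control, 37.6 ± 3.70 in proximal differentiation and 37.9 ± 7.08 FPKM in proximal control libraries (SD, n = 3).

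Gm53 (chromosome 11, 96141924 to 96160126, plus strand, mm39, ENSMUSG00000078706) starts 20359 bases from Hoxb9 and holds the gene of the miRNA Mir196a-1. It lies between Gm11538 and Hoxb5os. It measured 15.6, 11.7 and 11.7 FPKM in distal differentiation, 11.2, 10.9 and 10.1 FPKM in mid differentiation and 16.8, 18.6 and 18.4 FPKM in proximal differentiation libraries. In control medium it measured 10.9, 14.6 and 10.8 FPKM in distal, 15.2, 10.6 and 10.2 FPKM in mid and 15.6, 13.4 and 13.8 FPKM in proximal libraries. All 18 values lay between 10.1 and 18.6 FPKM, and the proximal differentiation values were above all mid and distal differentiation values. Mid was lower than proximal in differentiation medium (log2 fold change -0.69 ± 0.15 SE, adjusted p = 0.00274), distal was lower as well (-0.44 ± 0.15, adjusted p = 0.0361), and the distal call was lost without distal differentiation replicate 2 or 3 or proximal differentiation replicate 2 or 3 (adjusted p = 0.0896 to 0.131). No medium comparison of Gm53 was called. Hoxb9 itself averaged 4.82 ± 1.82 FPKM in distal, 5.95 ± 1.35 in mid and 51.8 ± 5.18 FPKM in proximal differentiation libraries (SD, n = 3).

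**Figure D2:**
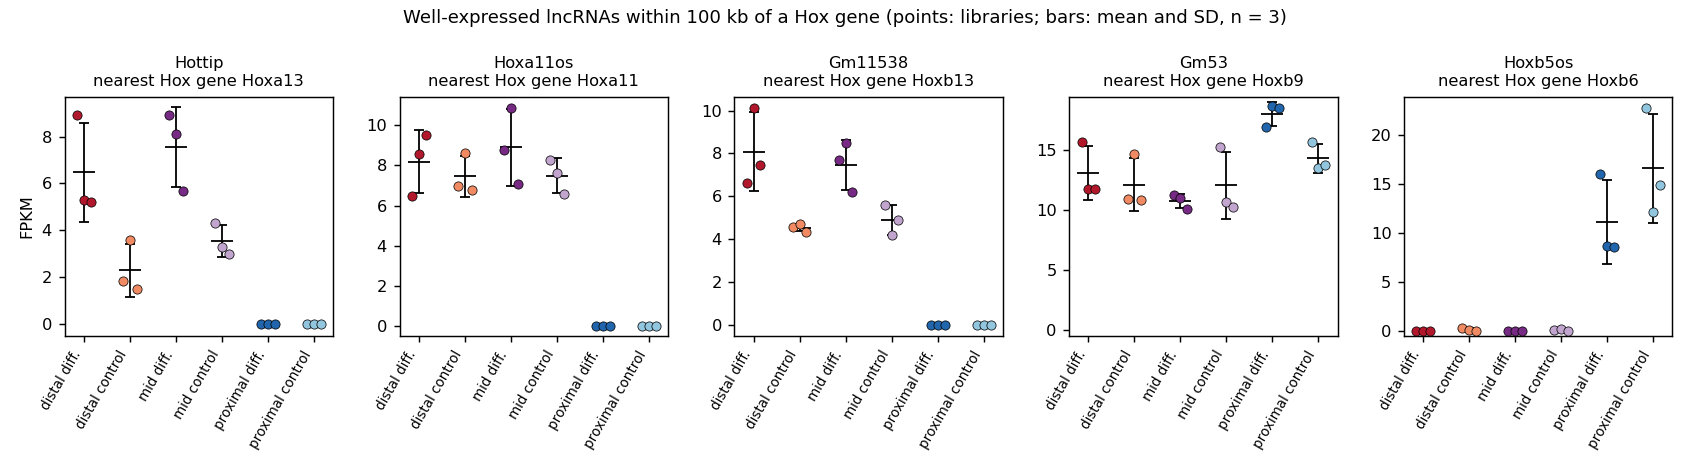
FPKM of the 5 Hox-cluster lncRNAs (1 panel each) in the 6 groups, with points for libraries and bars for the group mean and SD of 3 libraries. Hottip, Hoxa11os and Gm11538 sit at 0 in both proximal groups, Hoxb5os reaches 8.63 to 22.8 FPKM in proximal libraries and at most 0.247 FPKM elsewhere, and Gm53 stays between 10.1 and 18.6 FPKM.

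These lncRNAs can be set beside the Hox genes. Of the 39 Hox genes listed, 20 were tested. In distal against proximal organoids 12 were higher and 7 lower in control medium, beside 5.57% and 4.98% of all tested genes. In differentiation medium 10 were higher and 7 lower, beside 15.6% and 14.3% of all tested genes. The 5 lncRNAs near Hox genes that were tested but did not pass the rule were Hotairm1, Gm15050 and Hoxaas3 at the 3′ side of HoxA, and Gm11535 and Gm11536 at HoxB. Gm11536, near Hoxb3, was lower in distal than in proximal organoids in both media (-1.25 ± 0.16, adjusted p = 3.64e-05 in differentiation and -1.27 ± 0.16, adjusted p = 7.85e-05 in control medium). Gm11535, which starts 16765 bases on the other side of Hoxb13 from Gm11538, had 0 reads in every proximal library and 2.12, 1.94 and 1.12 FPKM in distal differentiation libraries. Hotairm1, at the 3′ end of HoxA, was higher in distal than in proximal organoids in both media (0.55 ± 0.18, adjusted p = 0.0284 in differentiation and 0.69 ± 0.18, adjusted p = 0.019 in control medium).

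Outside the Hox clusters, Gm43305 was a lncRNA of the distal side. Gm43305 (chromosome 14, 54529900 to 54534913, minus strand, mm39, ENSMUSG00000105703) overlaps no protein-coding gene. It measured 6.51, 7.27 and 9.90 FPKM in distal, 2.42, 2.65 and 1.86 FPKM in mid and 0.457, 0.398 and 0.438 FPKM in proximal differentiation libraries. In control medium the values were 12.02, 21.1 and 15.5 FPKM in distal, 11.9, 10.95 and 7.72 FPKM in mid and 0.205, 0.120 and 0.0715 FPKM in proximal libraries. The 3 regions did not overlap in either medium, although the lowest distal control library lay close above the highest mid control library. Distal exceeded proximal organoids in differentiation (log2 fold change 2.62 ± 0.19 SE, adjusted p = 6.48e-08) and in control medium (3.89 ± 0.19, adjusted p = 9.91e-10). Gm43305 reached 5 FPKM in no proximal library, so its difference from proximal organoids uses the values that chose it. It was also one of the 2 lncRNAs called between distal and mid organoids in differentiation medium (1.41 ± 0.19, adjusted p = 0.00158). The other was Gm28588, a Y-linked gene antisense to Uba1y, with 3.88, 3.27 and 1.45 FPKM in distal and 8.57, 8.27 and 7.54 FPKM in mid differentiation libraries (-1.30 ± 0.22, adjusted p = 0.00895, 0.0532 without mid differentiation replicate 1 and 0.421 with a pseudocount of 0.1). Gm28588 reached 5 FPKM in mid differentiation libraries alone, so this difference uses the values that chose it.

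Further lncRNAs of the distal and mid side were detected mainly in differentiation medium. Pla2g10os (chromosome 16, 13547700 to 13557335, plus strand, mm39), antisense to the secreted phospholipase A2 gene Pla2g10, measured 8.40, 14.4 and 13.99 FPKM in distal differentiation and 0.546, 1.21 and 1.36 FPKM in proximal differentiation libraries (log2 fold change 2.69 ± 0.26 SE, adjusted p = 1.71e-06). In control medium it held 2.83, 2.31 and 2.70 FPKM in distal and 0.777, 0.559 and 0 FPKM in proximal libraries (1.36 ± 0.26, adjusted p = 0.00273). Neither pair of groups overlapped. ENSMUSG00000117226 (chromosome 17, 74362726 to 74387288, minus strand, mm39) measured 11.5, 4.54 and 5.06 FPKM in distal, 5.75, 5.56 and 10.5 FPKM in mid and 0, 0.0908 and 0.0641 FPKM in proximal differentiation libraries, and distal exceeded proximal organoids (log2 fold change 2.83 ± 0.40 SE, adjusted p = 7.81e-05). Gm15401, antisense to the Wnt-pathway transcription factor gene Tcf7l1, had 535 reads in distal and 3 reads in proximal differentiation libraries, a ratio of 209 (counting interval 70.99 to 1015). Pla2g10os, ENSMUSG00000117226 and Gm15401 reached 5 FPKM in no proximal library, so their regional differences use the values that chose them.

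Gm49980 was a lncRNA of the proximal side. It (chromosome 18, 30400302 to 30405186, plus strand, mm39, ENSMUSG00000117465) lies 614 bases from Pik3c3, which encodes a phosphatidylinositol 3-kinase. It measured 20.4, 11.7 and 12.4 FPKM in proximal differentiation and 26.5, 25.4 and 26.5 FPKM in proximal control libraries, with 0 reads in all 6 distal libraries and at most 0.610 FPKM in any mid library. Distal organoids were at least 234-fold lower than proximal organoids in differentiation medium and at least 609-fold lower in control medium. Gm49980 reached 5 FPKM in proximal libraries alone, so this regional difference uses the values that chose it. Within the proximal organoids the differentiation values lay below all control values (log2 fold change -0.82 ± 0.21 SE, adjusted p = 0.00378, 0.271 with a pseudocount of 0.1).

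Gm42047 (chromosome 8, 122559986 to 122567917, plus strand, mm39, ENSMUSG00000110631), one of the 10 most abundant members, was lower in distal than in proximal organoids and lower in differentiation than in control medium. It measured 1.88, 2.15 and 3.46 FPKM in distal differentiation and 15.8, 14.02 and 10.9 FPKM in distal control libraries. The proximal values were 39.9, 18.7 and 20.4 FPKM in differentiation and 97.96, 61.6 and 62.2 FPKM in control libraries, so none of these 4 groups overlapped another. Distal was lower than proximal in differentiation (log2 fold change -2.91 ± 0.27 SE, adjusted p = 9.29e-07) and control medium (-2.34 ± 0.27, adjusted p = 2.2e-05), and the medium difference was -2.07 ± 0.27 in distal, -1.90 ± 0.27 in mid and -1.50 ± 0.27 in proximal organoids. Wincr1, a lncRNA known as Wnt-induced from mouse fibroblasts, measured 1.76, 0.397 and 3.23 FPKM in distal and 19.5, 33.5 and 29.8 FPKM in proximal differentiation libraries (log2 fold change -3.46 ± 0.57 SE, adjusted p = 0.000289). Its distal control libraries spread widely, at 3.69, 0.879 and 12.9 FPKM against 17.1, 25.1 and 27.01 FPKM in proximal control libraries (-2.25 ± 0.57, adjusted p = 0.0179, lost without distal control replicate 1 or 2 or proximal control replicate 2 or 3 at 0.055 to 0.0892), and no medium comparison of Wincr1 was called. Gm38563 was lower in distal than in proximal organoids in both media (-1.94 ± 0.23 in differentiation and -2.03 ± 0.23 in control medium, 1.32e-05 and 2.07e-05 as adjusted p), and Gm30414 likewise (-2.29 ± 0.35 and -1.40 ± 0.35, adjusted p = 0.000147 and 0.0168, the control medium call lost without distal control replicate 2 or proximal control replicate 2 or 3 at 0.0689 to 0.0868). Gm38563 reached 5 FPKM in 3 differentiation and 3 control libraries alone, so its regional difference uses the values that chose it.

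By medium, 39 of the 115 lncRNAs (33.9%) were higher in differentiation than in control medium in all 3 regions, beside 20.1% of all tested genes, and 21 (18.3%) were lower in all 3, beside 19.5%. A further 16 (13.9%) were called in no region, beside 21.4% of all tested genes, and 82 (71.3%) were called with the same sign in both mid and distal organoids, beside 55.3%. The 44 lncRNAs that passed the rule in differentiation medium alone are among these, so nothing is read from the difference in shares. The medium also moved the markers of cell state. The crypt markers Lgr5, Ascl2, Axin2 and Smoc2 summed to 0.132 to 1.38 FPKM in distal differentiation and 29.0 to 37.3 FPKM in distal control libraries, 0.607 to 1.07 FPKM in mid differentiation and 32.4 to 37.8 FPKM in mid control libraries, and 0.593 to 3.95 FPKM in proximal differentiation and 26.1 to 30.9 FPKM in proximal control libraries. The 5 colonocyte markers summed to 15597 to 21936 FPKM in distal differentiation and 1331 to 2147 FPKM in distal control libraries, 16849 to 20119 FPKM in mid differentiation and 942 to 1264 FPKM in mid control libraries, and 12965 to 23179 FPKM in proximal differentiation and 282 to 1228 FPKM in proximal control libraries. All 4 crypt and all 5 colonocyte markers reached 1 FPKM in at least 1 library. The part of these markers, and of the mitochondrial share, in the lncRNA differences was not tested.

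Among the largest rises in differentiation medium were those of Gm11695 and ENSMUSG00000120941. Gm11695 (chromosome 11, 115352871 to 115354280, minus strand, mm39, ENSMUSG00000085651), antisense to the monocarboxylate transporter family gene Slc16a5, measured 84.8, 45.3 and 39.5 FPKM in distal differentiation and 2.54, 2.58 and 1.37 FPKM in distal control libraries. In proximal organoids it held 24.3, 46.9 and 42.9 FPKM in differentiation and 2.69, 1.48 and 1.17 FPKM in control libraries. The lowest differentiation library was thus several times the highest control library, and the fold changes were 4.13 ± 0.31 in distal, 3.86 ± 0.31 in mid and 3.80 ± 0.31 in proximal organoids on the log2 scale (adjusted p up to 2.57e-07). ENSMUSG00000120941 (chromosome 3, 95431531 to 95432103, minus strand, mm39) overlaps no protein-coding gene and measured 19.2, 17.1 and 14.7 FPKM in mid differentiation and 0.827, 0.0892 and 0.179 FPKM in mid control libraries (log2 fold change 3.75 ± 0.34 SE, adjusted p = 3.44e-07), with 3.07 ± 0.34 in distal and 3.18 ± 0.34 in proximal organoids. Both passed the rule through their differentiation libraries, so the direction was fixed by the choice of members.

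The most abundant lncRNA, Malat1, an RNA of nuclear speckles (chromosome 19, 5845717 to 5852704, minus strand, mm39, ENSMUSG00000092341), was at or above 5 FPKM in every library. It measured 138, 92.1 and 143 FPKM in distal differentiation and 55.7, 67.9 and 73.5 FPKM in distal control libraries. The mid values were 99.3, 100.5 and 129 FPKM in differentiation and 53.6, 40.3 and 56.9 FPKM in control libraries, and the proximal values 101, 152 and 146 FPKM in differentiation and 91.6, 76.6 and 73.3 FPKM in control libraries. Differentiation libraries lay above control libraries in each region, with log2 fold changes of 0.89 ± 0.20, adjusted p = 0.00127 in distal, 1.11 ± 0.20, adjusted p = 0.000197 in mid and 0.70 ± 0.20, adjusted p = 0.00858 in proximal organoids. The proximal call was lost with the libraries scaled to their summed reads (adjusted p = 0.0859). Neat1, the scaffold RNA of paraspeckles and a neighbour of Malat1 on chromosome 19, measured 28.1, 21.7 and 30.1 FPKM in distal differentiation and 13.5, 9.62 and 12.4 FPKM in distal control libraries, and 28.1, 26.3 and 24.6 FPKM in proximal differentiation and 15.6, 19.4 and 19.5 FPKM in proximal control libraries. Neat1 was higher in differentiation medium in distal (1.11 ± 0.14, adjusted p = 8.59e-06), mid (1.46 ± 0.14, adjusted p = 5.64e-07) and proximal organoids (0.52 ± 0.14, adjusted p = 0.00553, 0.247 with the libraries scaled to their summed reads). Of 7 nuclear-retained RNAs listed 3 were tested, and the third, the X-linked Firre, was not called in distal (0.08 ± 0.12) or mid organoids (0.09 ± 0.12) and was lower in proximal organoids (-0.37 ± 0.12, adjusted p = 0.0156, 0.0787 without proximal differentiation replicate 3).

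ENSMUSG00000120144 and ENSMUSG00000121141 were other abundant lncRNAs that reached 5 FPKM widely and rose. ENSMUSG00000121141 (chromosome 8, 118186456 to 118188251, plus strand, mm39) averaged 48.6 ± 1.11 FPKM in distal differentiation and 28.7 ± 5.35 FPKM in distal control libraries (SD, n = 3; medium difference 0.76 ± 0.14, adjusted p = 0.00021), with 0.72 ± 0.14 in mid and 0.63 ± 0.14 in proximal organoids. ENSMUSG00000120144, near Arf6, averaged 69.6 ± 23.1 FPKM in distal differentiation and 38.1 ± 5.77 FPKM in distal control libraries (SD, n = 3; medium difference 0.81 ± 0.21, adjusted p = 0.00367, 0.0602 with the libraries scaled to their summed reads). Norad, which binds Pumilio proteins, moved the other way, with 19.3, 23.2 and 24.7 FPKM in distal differentiation and 32.1, 34.2 and 30.8 FPKM in distal control libraries (log2 fold change -0.52 ± 0.10 SE, adjusted p = 0.000261), and -0.37 ± 0.10, adjusted p = 0.00371 in mid and -0.37 ± 0.10, adjusted p = 0.00423 in proximal organoids. Differentiation libraries lay below control libraries in each region.

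Falls in differentiation medium in distal organoids were led by AI506816 and ENSMUSG00000120992. AI506816 (chromosome 5, 23903294 to 23917684, minus strand, mm39, ENSMUSG00000105987) measured 1.89, 2.77 and 9.01 FPKM in distal differentiation and 33.2, 40.7 and 39.6 FPKM in distal control libraries (log2 fold change -3.02 ± 0.49 SE, adjusted p = 8.59e-05). In proximal organoids it held 21.1, 3.28 and 4.71 FPKM in differentiation and 43.2, 32.1 and 32.7 FPKM in control libraries (-2.17 ± 0.49, adjusted p = 0.00175). Replicate 1 of the proximal differentiation group was the high one, and without it the difference was -2.89 (adjusted p = 1.63e-05). ENSMUSG00000120992 (chromosome 17, 35215654 to 35219393, minus strand, mm39), which starts head to head with the valyl-tRNA synthetase gene Vars, measured 22.7, 29.1 and 23.6 FPKM in mid differentiation and 132, 135 and 139 FPKM in mid control libraries (log2 fold change -2.39 ± 0.37 SE, adjusted p = 4.99e-05), and fell by 2.54 in distal and by 1.95 in proximal organoids on the log2 scale. AU020206, Gm17025 and G930009F23Rik, at 2.96 to 6.18 FPKM on average, fell in all 3 regions as well, by 1.48 to 2.16 on the log2 scale. Gm17025 and G930009F23Rik reached 5 FPKM in control libraries alone, so their fall uses the values that chose them.

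Most hosts of snoRNAs fell. Within the bounds of 13 members the table places 37 snoRNA genes, 10 of them in Gas5 and 8 in Snhg1. In differentiation against control medium 12 of the 13 were lower in distal, 12 in mid and 11 in proximal organoids, beside 31.3%, 32.0% and 26.2% of all tested genes called lower, and 1, Gm11775, was higher in each region. Snhg5, Snhg6, Snhg15 and Snhg17 reached 5 FPKM in control libraries alone, and Gm11775 in differentiation libraries alone. Their directions use the values that chose them, so the counts are a description. The median log2 fold changes of the 13 were -1.28 in distal, -1.40 in mid and -0.95 in proximal organoids, against medians of 0.00, 0.00 and -0.01 over all tested genes. Of the 15 tested genes of a broader list of known snoRNA hosts, which holds 9 of these members, 13 were lower in distal, 14 in mid and 14 in proximal organoids and 0 were higher. The counts of lower genes were 15, 15 and 14 with the libraries scaled to their summed reads. Under that scaling 47.3%, 46.6% and 40.2% of all tested genes were called lower in distal, mid and proximal organoids. The proliferation markers also fell with the medium, summing to 2.06 to 10.4 FPKM in distal differentiation and 57.6 to 101.9 FPKM in distal control libraries, 4.55 to 7.70 FPKM in mid differentiation and 88.8 to 115 FPKM in mid control libraries, and 2.64 to 36.8 FPKM in proximal differentiation and 23.8 to 58.6 FPKM in proximal control libraries, and their part was not tested.

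Gas5 and Snhg1 hold the largest numbers of these snoRNA genes. Gas5, a snoRNA host that builds up in growth-arrested cells in culture (chromosome 1, 160861992 to 160866116, plus strand, mm39, ENSMUSG00000053332), measured 9.50, 9.46 and 10.9 FPKM in distal differentiation and 32.4, 23.9 and 18.2 FPKM in distal control libraries. The mid values were 8.61, 8.37 and 6.02 FPKM in differentiation and 22.4, 22.4 and 20.4 FPKM in control libraries, and the proximal values 16.8, 10.4 and 11.2 FPKM in differentiation and 22.4, 30.6 and 29.3 FPKM in control libraries. Differentiation libraries lay below control libraries without overlap in each region, at -1.21 ± 0.20, adjusted p = 0.000106 in distal, -1.40 ± 0.20, adjusted p = 2.6e-05 in mid and -1.06 ± 0.20, adjusted p = 0.000491 in proximal organoids on the log2 scale. Snhg1 (chromosome 19, 8700801 to 8703811, plus strand, mm39, ENSMUSG00000108414), head to head with the amino acid transporter gene Slc3a2, measured 1.23, 1.89 and 2.43 FPKM in distal differentiation and 14.3, 12.5 and 8.06 FPKM in distal control libraries (log2 fold change -2.13 ± 0.25 SE, adjusted p = 4.54e-06). In proximal organoids it held 5.58, 2.04 and 2.75 FPKM in differentiation and 9.06, 10.2 and 11.1 FPKM in control libraries (-1.40 ± 0.25, adjusted p = 0.000305). As for AI506816, proximal differentiation replicate 1 was the highest of its group for both, and without it the differences were -1.26 for Gas5 and -1.72 for Snhg1.

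The other hosts differed in how far they fell. For Snhg5, Snhg6, Snhg15, Snhg17 and Gm11775 the direction uses the values that chose them. Snhg5 fell by 1.93 in distal, 1.82 in mid and 1.39 in proximal organoids on the log2 scale, and Snhg17 by 1.60, 1.52 and 1.86 in the same order. Snhg15 fell by 1.54, 1.36 and 1.57, and Snhg6 by 1.26, 1.35 and 0.85. Snhg8 had -1.25 ± 0.25, adjusted p = 0.00053 in distal and -0.75 ± 0.25, adjusted p = 0.0204 in proximal organoids, the proximal call being lost without proximal differentiation replicate 2 or 3 or proximal control replicate 1 or 3 (adjusted p = 0.0515 to 0.0943). Epb41l4aos fell in distal (-1.28 ± 0.23, adjusted p = 0.000233) and mid organoids (-1.43 ± 0.23, adjusted p = 8.52e-05), with -0.72 ± 0.23, adjusted p = 0.0173 in proximal organoids (0.0547 without proximal differentiation replicate 3 and 0.0563 without proximal control replicate 2). 2410006H16Rik, which holds 3 snoRNA genes, had -0.93 ± 0.33, adjusted p = 0.0276 in proximal organoids, and that call was lost without any 1 of the 6 proximal libraries (adjusted p = 0.0503 to 0.0653). 1110038B12Rik fell in distal (-0.83 ± 0.18, adjusted p = 0.00101) and mid organoids (-0.65 ± 0.18, adjusted p = 0.00562) but was not called in proximal organoids (0.12 ± 0.18, adjusted p = 0.599). Gm11775, the host that rose, overlaps Cd7 on the opposite strand and measured 8.48, 7.38 and 11.8 FPKM in mid differentiation and 0, 0.132 and 0.530 FPKM in mid control libraries (3.07 ± 0.29, adjusted p = 4.75e-07).

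**Figure D3:**
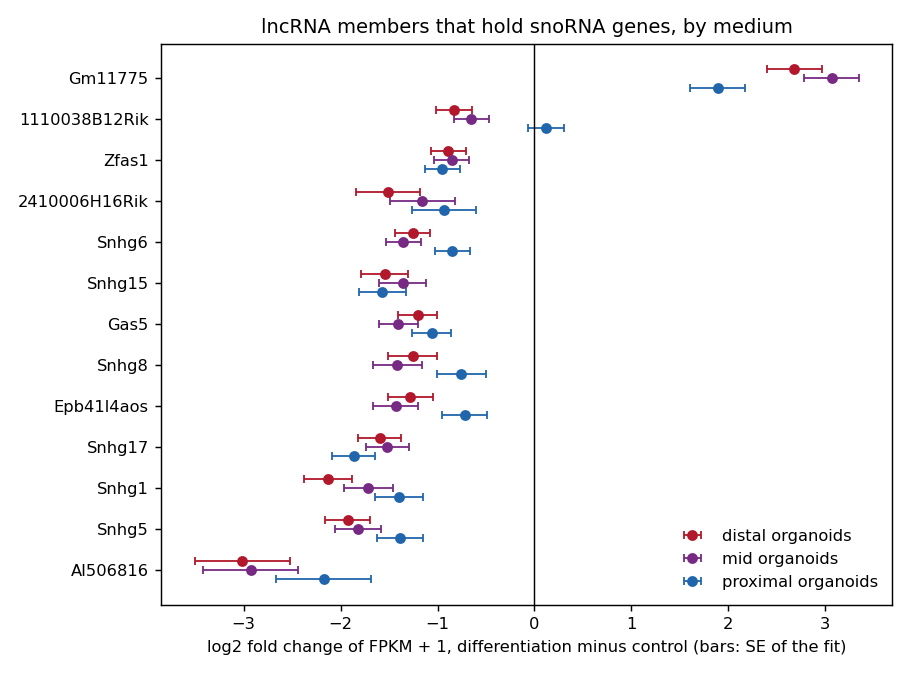
Log2 fold change with SE, on the log2(FPKM + 1) scale, of the 13 lncRNAs that hold snoRNA genes, for differentiation against control medium in distal, mid and proximal organoids. All but Gm11775 lie below 0 in distal and mid organoids, and 1110038B12Rik lies at 0.12 in proximal organoids.

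Transcripts of the Gas5 and Snhg type are known to start with a C followed by a run of pyrimidines, the 5′ terminal oligopyrimidine element shared with messengers of ribosomal proteins. The stretches around the RefSeq starts (GRCm38.p6, 15 bases before the start to 15 after it) are shown for every host with a start in the table, 1 line for each start, with runs of at least 5 C or T in capitals.
AI506816 (chr5:23712652-23712682, minus strand): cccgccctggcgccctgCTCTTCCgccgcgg
1110038B12Rik (chr17:34952456-34952486, minus strand): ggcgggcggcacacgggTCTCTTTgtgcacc
1110038B12Rik (chr17:34952453-34952483, minus strand): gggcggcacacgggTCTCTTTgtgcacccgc
2410006H16Rik (chr11:62602862-62602892, plus strand): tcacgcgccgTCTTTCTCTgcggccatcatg
Gas5 (chr1:161034586-161034616, plus strand): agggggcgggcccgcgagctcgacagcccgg
Gas5 (chr1:161035151-161035181, plus strand): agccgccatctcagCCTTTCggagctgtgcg
Zfas1 (chr2:167062919-167062949, plus strand): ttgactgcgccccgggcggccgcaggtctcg
Snhg8 (chr3:123508321-123508351, minus strand): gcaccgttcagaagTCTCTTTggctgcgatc
Snhg1 (chr19:8723472-8723502, plus strand): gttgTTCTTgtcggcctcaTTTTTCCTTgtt
Snhg5 (chr9:88522882-88522912, minus strand): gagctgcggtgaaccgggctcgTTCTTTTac
Snhg15 (chr11:6528745-6528775, minus strand): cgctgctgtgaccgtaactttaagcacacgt
Snhg17 (chr2:158361507-158361537, minus strand): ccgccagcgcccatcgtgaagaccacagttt
Snhg17 (chr2:158361494-158361524, minus strand): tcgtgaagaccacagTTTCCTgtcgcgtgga
Of the 13 members 10 have a start in that table, 13 starts in all, and 9 of the 13 stretches (8 of the 10 members) held such a run, against 48.4% of all stretches. Zfas1, Snhg15 and 1 start each of Gas5 and Snhg17 had none. That Snhg17 stretch ends inside the run shown for the other Snhg17 start. The count took runs anywhere in the stretch and required no C at the start. It therefore does not test for the 5′ terminal oligopyrimidine element. This is a description of the annotated starts, which may differ from those used in these cells.

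Hosts of miRNAs moved in both directions. Within 5 members lie 12 miRNA genes: Mir22 in Mir22hg, Mir17, Mir18, Mir19a, Mir20a, Mir19b-1 and Mir92-1 in Mir17hg, Mir31 in Gm49890, Mir196a-1 in Gm53, and Mir200a, Mir200b and Mir429 in Gm13648. The mature miRNAs are printed from RefSeq (GRCm38.p6) to show which of these hosts share seeds, with the seed (bases 2 to 8) in capitals. The libraries measured the long host RNA and not the mature miRNA.
miR-17-5p: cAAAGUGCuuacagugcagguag
miR-20a-5p: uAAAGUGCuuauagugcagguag
miR-18a-5p: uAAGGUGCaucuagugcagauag
miR-19a-3p: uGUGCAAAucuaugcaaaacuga
miR-19b-3p: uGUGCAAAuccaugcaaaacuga
miR-92a-3p: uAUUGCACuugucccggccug
miR-22-3p: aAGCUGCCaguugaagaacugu
miR-31-5p: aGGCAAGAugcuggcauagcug
miR-200b-3p: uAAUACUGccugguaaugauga
miR-429-3p: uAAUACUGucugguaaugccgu
miR-200a-3p: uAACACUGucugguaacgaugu
miR-196a-5p: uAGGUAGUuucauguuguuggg
The seed AAAGUGC was shared by miR-17-5p and miR-20a-5p and GUGCAAA by miR-19a-3p and miR-19b-3p, all from Mir17hg. AAUACUG was shared by miR-200b-3p and miR-429-3p from Gm13648, and no seed was shared between hosts in this set.

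Mir17hg, the host of the miR-17-92 cluster, which is known as a target of Myc (chromosome 14, 115280311 to 115284159, plus strand, mm39, ENSMUSG00000089726), measured 0.146, 0.222 and 0.634 FPKM in distal differentiation and 4.47, 4.26 and 3.78 FPKM in distal control libraries. The mid values were 0.297, 0.674 and 0.206 FPKM in differentiation and 4.09, 5.10 and 4.78 FPKM in control libraries, and the proximal values 1.35, 0.248 and 0.446 FPKM in differentiation and 3.55, 5.01 and 5.83 FPKM in control libraries. It was lower in differentiation medium without overlap in every region, at -1.97 ± 0.22, adjusted p = 2.99e-06 in distal, -2.03 ± 0.22, adjusted p = 2.01e-06 in mid and -1.82 ± 0.22, adjusted p = 1.1e-05 in proximal organoids. Mir17hg reached 5 FPKM in 3 control libraries and in no differentiation library, so this direction was fixed by the choice of members. Mir22hg (chromosome 11, 75352365 to 75357502, plus strand, mm39, ENSMUSG00000085148) moved the other way, with 33.999, 30.1 and 26.6 FPKM in distal differentiation and 8.60, 6.38 and 12.01 FPKM in distal control libraries (log2 fold change 1.68 ± 0.22 SE, adjusted p = 1.5e-05). The mid difference was 1.62 ± 0.22, adjusted p = 1.78e-05 and the proximal difference 0.77 ± 0.22, adjusted p = 0.0091, the proximal call being lost without proximal control replicate 1 (0.0520) and with the libraries scaled to their summed reads (0.054).

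The other miRNA hosts were not called by medium in any region. Gm49890 (chromosome 4, 88828092 to 88856758, minus strand, mm39, ENSMUSG00000117123), which holds Mir31, measured 7.39, 8.79 and 13.2 FPKM in distal and 25.5, 22.8 and 32.1 FPKM in proximal differentiation libraries. These groups did not overlap, and distal was lower than proximal in differentiation medium (log2 fold change -1.38 ± 0.34 SE, adjusted p = 0.00638). In control medium the values were 9.24, 6.46 and 20.8 FPKM in distal and 17.1, 24.8 and 30.2 FPKM in proximal libraries, which overlapped (-1.04 ± 0.34, adjusted p = 0.068). Mid was called lower than proximal in both media. That call was lost without any 1 of 4 libraries in control (adjusted p = 0.14 to 0.196) and 5 in differentiation medium (0.0532 to 0.0983). Gm13648, which holds the miR-200a, miR-200b and miR-429 genes of epithelial cells, measured 7.65, 6.41 and 10.5 FPKM in distal, 10.1, 7.84 and 11.3 FPKM in mid and 7.81, 5.87 and 5.36 FPKM in proximal differentiation libraries. Its values overlapped between distal and proximal organoids, and no medium difference was called (-0.17 ± 0.17 in distal, -0.27 ± 0.17 in mid and -0.29 ± 0.17 in proximal organoids). Mid was called higher than proximal in differentiation medium, a call lost without any 1 of 4 libraries (adjusted p = 0.0705 to 0.103).

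The response to the medium itself was compared between distal and proximal organoids with an interaction term. It was called for 19 lncRNAs, beside 8.24% of all tested genes, 14 with a higher (4.16% of all) and 5 with a lower (4.09%) distal than proximal response. It was called for 12 higher and 5 lower without proximal differentiation replicate 1, beside 3.61% and 4.30% of all tested genes. With voom on the recovered reads it was called for 8 in all, beside 5.19%. Without proximal control replicate 2 it was called for 11 in all, and the share of all tested genes was not computed. ENSMUSG00000121069 (chromosome 15, 82247110 to 82252084, plus strand, mm39) measured 7.64, 8.52 and 6.20 FPKM in distal differentiation and 0.792, 1.87 and 1.05 FPKM in distal control libraries, against 0.594, 0.385 and 0.430 FPKM in proximal differentiation and 0.543, 0.586 and 0.624 FPKM in proximal control libraries. The media separated in distal and not in proximal organoids (interaction 2.05 ± 0.22, adjusted p = 3.76e-05). ENSMUSG00000120476 (chromosome 3, 31114947 to 31133853, minus strand, mm39) measured 9.66, 4.55 and 5.45 FPKM in distal differentiation and 0.347, 0.126 and 0.123 FPKM in distal control libraries, and 0.239, 0.633 and 0.199 FPKM in proximal differentiation and 0.0283, 0 and 0.0263 FPKM in proximal control libraries, so the media separated in both regions (interaction 2.20 ± 0.32, adjusted p = 0.000554, but 0.545 with voom on the recovered reads). Both passed the rule through distal and mid differentiation libraries alone, so their interaction uses the values that chose them and is given as a description. The log2(FPKM + 1) scale understates changes among values below 1 FPKM.

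For 4930461G14Rik and Gm49172 the media separated in opposite directions. 4930461G14Rik (chromosome 9, 58362385 to 58376920, plus strand, mm39, ENSMUSG00000097651) measured 3.34, 2.46 and 3.63 FPKM in distal differentiation and 5.57, 6.98 and 7.25 FPKM in distal control libraries (log2 fold change -0.88 ± 0.15 SE, adjusted p = 0.00016). In proximal organoids it held 20.6, 18.6 and 20.7 FPKM in differentiation and 13.9, 12.99 and 13.9 FPKM in control libraries (0.52 ± 0.15, adjusted p = 0.0102, 0.276 with the libraries scaled to their summed reads). The differentiation libraries lay below the control libraries in distal organoids and above them in proximal organoids (interaction -1.40 ± 0.22, adjusted p = 0.000921). Gm49172 (chromosome 15, 95870620 to 95892010, minus strand, mm39, ENSMUSG00000115049), antisense to the phospholipid scramblase gene Ano6, measured 2.86, 1.68 and 3.87 FPKM in distal differentiation and 10.3, 5.83 and 11.1 FPKM in distal control libraries (log2 fold change -1.40 ± 0.27 SE, adjusted p = 0.000331). Its proximal values were 15.3, 19.6 and 21.3 FPKM in differentiation and 11.4, 12.7 and 10.8 FPKM in control libraries (0.64 ± 0.27, adjusted p = 0.056), and the interaction was -2.04 ± 0.38 (adjusted p = 0.00348).

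**Figure D4:**
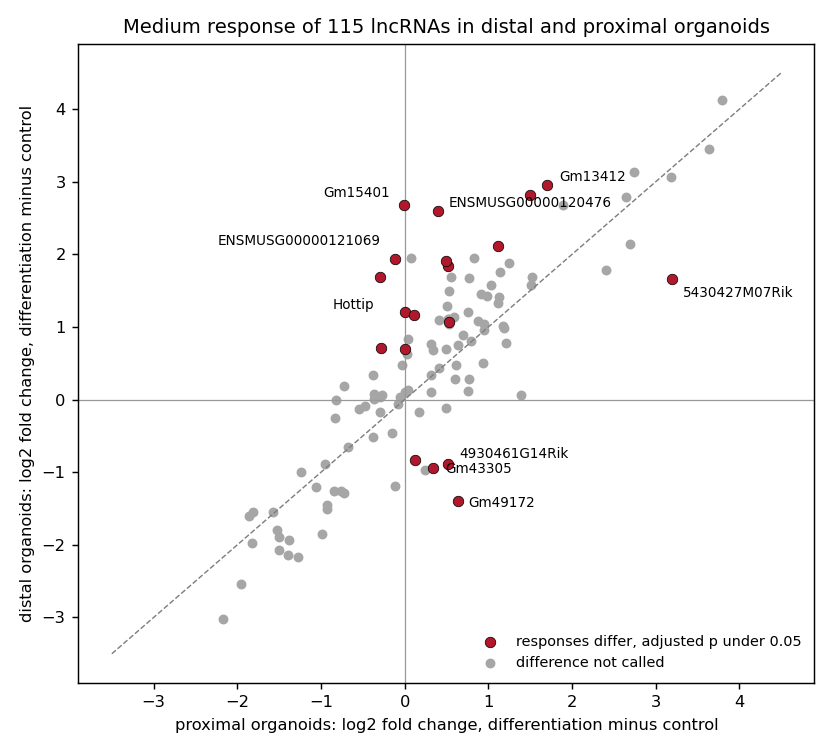
Log2 fold change between differentiation and control medium in distal organoids (vertical axis) against that in proximal organoids (horizontal axis) for the 115 lncRNAs, on the log2(FPKM + 1) scale, with the 19 whose response differed between the regions in red. Gm15401 and ENSMUSG00000120476 lie near 0 on the proximal and above 2 on the distal axis, and Gm49172 and 4930461G14Rik lie below 0 on the distal and above 0 on the proximal axis.

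Position relative to protein-coding genes was read from the table. Of the 115 lncRNAs 72 overlap no protein-coding gene, 35 overlap one on the opposite strand and 8 one on the same strand, and 29 start head to head with a protein-coding gene within 1000 bases. In 30 of the 35 opposite-strand pairs both genes were tested. Both were called in the same direction between media in 16 pairs in distal, 17 in mid and 8 in proximal organoids, and in opposite directions in 3, 4 and 4 pairs. Among the 214 tested opposite-strand pairs whose lncRNA did not pass the rule, the same direction was called in 27.1% in distal, 30.8% in mid and 17.8% in proximal organoids, and opposite directions in 2.34%, 4.67% and 3.27%. Those lncRNAs lie below the level the rule asks for, so the shares describe the background and nothing particular to the 115 is read from them. Between distal and proximal organoids both genes were called in the same direction in 9 of the 30 opposite-strand pairs in differentiation medium. In control medium 5 pairs were, and 0 pairs were called in opposite directions in either medium. The share among pairs whose lncRNA did not pass the rule was not computed for these regional comparisons. The regional counts are therefore a description, and nothing particular to the 115 is read from them. Of 7 tested same-strand pairs, both genes were called in the same direction in 3 in distal, 5 in mid and 4 in proximal organoids, beside 23.4%, 19.1% and 21.3% of 47 such pairs whose lncRNA did not pass the rule. Since the strand of the reads is not known, a shared direction can hold reads of one gene counted for the other, and their share cannot be told apart.

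Pairs that moved together included the regional genes named above. Gm11695 and Slc16a5 were higher in distal differentiation than in distal control libraries by 4.13 ± 0.31 and 4.05 ± 0.27, adjusted p = 1.74e-08. Between distal and proximal differentiation libraries the difference was 2.69 ± 0.26 for Pla2g10os and 3.15 ± 0.27, adjusted p = 3.44e-07 for Pla2g10, 3.08 ± 0.33 for Gm15401 and 2.90 ± 0.24, adjusted p = 2.92e-07 for Tcf7l1, and -2.41 ± 0.27 for Gm49172 and -2.19 ± 0.18, adjusted p = 3.07e-07 for Ano6. Ano6 also followed Gm49172 in the proximal medium comparison (0.58 ± 0.18, adjusted p = 0.0148). Gm19610, antisense to Ereg, which encodes the EGF receptor ligand epiregulin, was lower in distal than in proximal differentiation libraries (-2.38 ± 0.32), as was Ereg (-2.31 ± 0.21, adjusted p = 8.78e-07). Gm20684, antisense to the proprotein convertase gene Pcsk6, was lower as well (-1.86 ± 0.19), as was Pcsk6 (-2.14 ± 0.28, adjusted p = 3.56e-05). Gm19610 reached 5 FPKM in 1 differentiation and 3 control libraries, and Gm20684 in 3 control libraries alone. Their regional differences may therefore use the values that chose them and are given as a description.

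A smaller set moved against the gene it overlaps. 0610005C13Rik (chromosome 7, 45217213 to 45224751, minus strand, mm39, ENSMUSG00000109644), which overlaps the branched-chain aminotransferase gene Bcat2, measured 10.9, 12.03 and 8.13 FPKM in distal differentiation and 0.275, 0.320 and 0.249 FPKM in distal control libraries (log2 fold change 3.13 ± 0.16 SE, adjusted p = 1.86e-09). It reached 5 FPKM in differentiation libraries alone, so its own rise was fixed by the choice of members, while Bcat2 played no part in that choice. Bcat2 was lower in the same libraries (-1.97 ± 0.35, adjusted p = 0.000171), and this held in mid (3.16 ± 0.16 against -1.48 ± 0.35, adjusted p = 0.00161) and proximal organoids (2.74 ± 0.16 against -1.24 ± 0.35, adjusted p = 0.00747). Zfas1, a snoRNA host, was lower and Znfx1, a helicase gene that it overlaps and starts head to head with, higher in differentiation medium in distal (-0.89 ± 0.18 against 0.78 ± 0.09, adjusted p = 4.41e-06), mid (-0.85 ± 0.18 against 1.02 ± 0.09, adjusted p = 2.88e-07) and proximal organoids (-0.95 ± 0.18 against 0.63 ± 0.09, adjusted p = 5.21e-05). The snoRNA host 2410006H16Rik and Lrrc75a formed another such pair in distal organoids (-1.51 ± 0.33 against 0.75 ± 0.12, adjusted p = 9.99e-05).

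**Figure D5:**
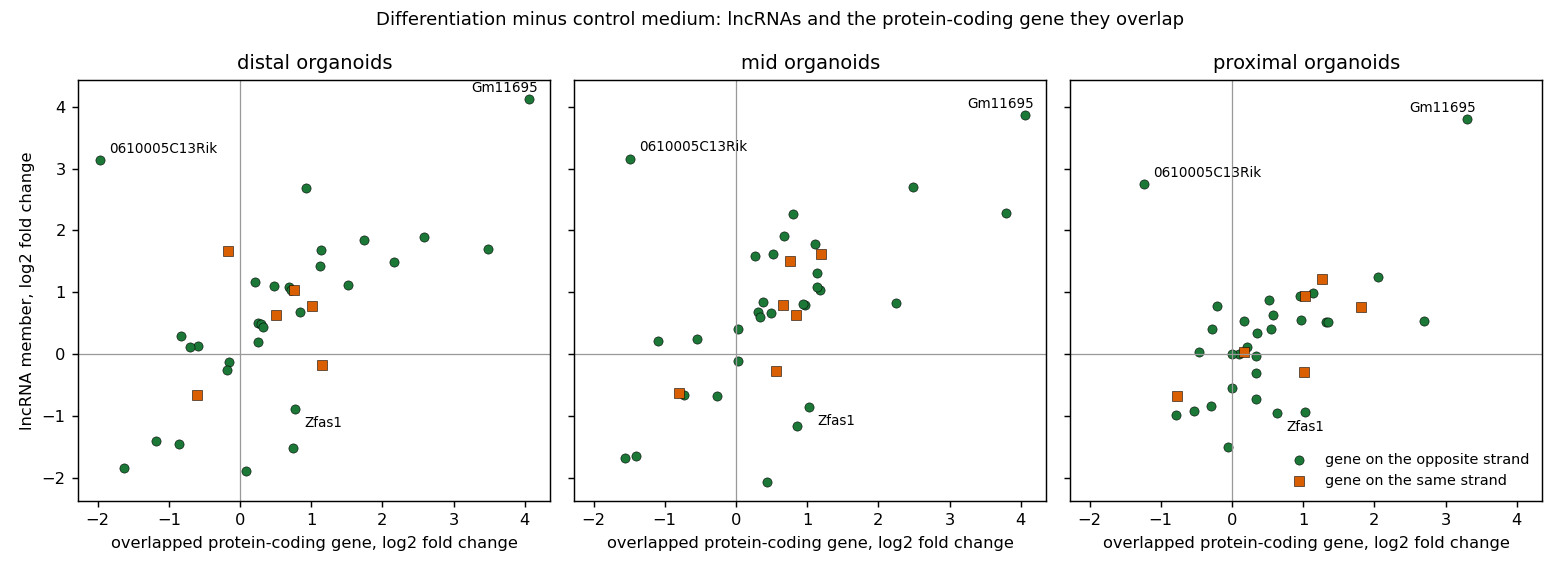
Log2 fold change of each lncRNA against that of the protein-coding gene it overlaps, on the log2(FPKM + 1) scale, for differentiation against control medium in distal, mid and proximal organoids (1 panel each), with circles for opposite-strand and squares for same-strand pairs. Pairs whose protein-coding gene was not tested, and 1 further same-strand pair, are not shown. Gm11695 lies at the upper right of the distal medium panel, and 0610005C13Rik lies at the upper left, at 3.13 against -1.97 for Bcat2.

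Spread between replicates was modest for most members. Over the 371 combinations of member and group with a mean of at least 5 FPKM, the median coefficient of variation was 17.7%. It was widest for Wincr1 in distal control libraries, at 108%, and for AI506816 in proximal differentiation libraries, at 102%. Gm10076, a short gene of 407 bases whose nearest protein-coding gene, Spry2, lies 209716 bases away, was among the 10 most abundant members and among the most variable. It measured 13.9, 92.1 and 59.6 FPKM in distal differentiation and 23.5, 27.2 and 20.6 FPKM in distal control libraries, and 49.9, 31.8 and 143 FPKM in proximal differentiation and 48.7, 41.4 and 105 FPKM in proximal control libraries. The media overlapped in both regions, and no medium or regional comparison of Gm10076 was called (0.83 ± 0.67, adjusted p = 0.292 between media in distal organoids).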

How the data were processed

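Bulk libraries of poly-T selected RNA from 18 organoid cultures were analysed from the FPKM per gene that the authors deposited. Per the submitters' processing notes, reads were aligned with HISAT2 2.0.5 to mm39 and counted with featureCounts 1.5.0-p3. The labels do not settle if strand was kept. Since FPKM of a library were whole multiples of 1 read for each gene (100% of values within 0.001), reads were recovered to give depth. The library size behind the FPKM differed from the summed reads. The summed reads were 0.831 to 0.873 of that size in control libraries and 0.959 to 1.32 of it in differentiation libraries. Genes at 1 FPKM or more in at least 3 libraries were tested with limma 3.58.1 in R 4.3.3 on log2(FPKM + 1), with a mean-variance trend, 6 group means fitted together and Benjamini-Hochberg adjustment over all tested genes. Fold changes are on that scale and understate the change of low genes. SE are limma's. Intervals (95%) and bounds (3 reads) cover counting error only.

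The lncRNAs, gene lists and comparisons were chosen with earlier results of these data known. Named were the 10 lncRNAs with the highest mean, the 5 largest called changes each way by medium and between distal and proximal organoids (3 each in mid comparisons and in the interaction), those within 100 kb of a Hox gene, list members, and 3 on either side of the rule's edge. Other lncRNAs named by their position or small RNAs were chosen after their values were seen. Sequences came from RefSeq tables of GRCm38.p6, and positions from the deposited table (mm39). The labels give replicate numbers without saying what a number marks. All 3 same-numbered pairs correlated above 0.1 in their deviations from the group means for distal differentiation with distal control (0.118 to 0.223) and distal control with mid control (0.149 to 0.542), 2 of 15 pairs of groups, and by that hint from the data the numbers pair these. The fit was checked on simulated data. Alternatives were another pseudocount, other filters, other scalings, a replicate block, a fit to only the groups compared and leaving out each library. voom on the recovered reads was added after seeing the data. Python 3.11.15 with pandas 2.3.3 and matplotlib 3.10.9 made the summaries and figures. A pair of overlapping genes on the same strand is not reported here.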

Additional observations from a re-analysis of the deposited data

Results flagged for a closer look

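The medium response differed between distal and proximal organoids, by limma's interaction term on log2(FPKM + 1), for the following named lncRNAs. The distal response was the higher one for ENSMUSG00000120476 (2.20 ± 0.32, adjusted p = 0.000554), Gm15401 (2.69 ± 0.46, adjusted p = 0.00203), ENSMUSG00000121069 (2.05 ± 0.22, adjusted p = 3.76e-05), Pla2g10os (1.33 ± 0.37, adjusted p = 0.0385), Gm13412 (1.26 ± 0.24, adjusted p = 0.00429), Hottip (1.20 ± 0.32, adjusted p = 0.0296) and Gm11538 (0.69 ± 0.19, adjusted p = 0.0374). It was the lower one for Gm49172 (-2.04 ± 0.38, adjusted p = 0.00348), 5430427M07Rik (-1.53 ± 0.42, adjusted p = 0.0362), 4930461G14Rik (-1.40 ± 0.22, adjusted p = 0.000921) and Gm43305 (-1.27 ± 0.27, adjusted p = 0.00832).

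Hottip and Gm11538 had 0 reads in both proximal groups, so their difference equals the distal medium response. With voom on the recovered reads the adjusted p was 0.613 for Hottip, 0.697 for Gm11538, 0.679 for Pla2g10os, 0.48 for Gm13412, 0.277 for 5430427M07Rik, 0.198 for Gm15401 and 0.545 for ENSMUSG00000120476. The calls for Gm49172, 4930461G14Rik, Gm43305 and ENSMUSG00000121069 held with voom. In leave-one-out fits over the 12 libraries of the comparison, the call was lost for Gm11538 without any 1 of 10 (adjusted p = 0.0543 to 0.0891), for Pla2g10os of 9 (0.0502 to 0.0993), for Hottip of 7 (0.0502 to 0.0666) and for 5430427M07Rik of 7 (0.0534 to 0.0868). The other named calls kept their side of 0.05 in these fits. Of these lncRNAs, ENSMUSG00000120476, Gm15401, ENSMUSG00000121069, Pla2g10os, Gm13412, Hottip and 5430427M07Rik reached 5 FPKM in differentiation libraries alone, so their differences use the values that chose them.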

How the results depend on the processing

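Counts of called lncRNAs follow the rule for members. With members taken by a mean of at least 5 FPKM (61 lncRNAs), 38 were called by medium in distal, 42 in mid and 42 in proximal organoids. Between distal and proximal organoids 23 were called in differentiation and 11 in control medium, between mid and proximal 30 and 15, between distal and mid 1 in differentiation and 0 in control medium, and 7 in the interaction. The interaction gave 12 without a filter, 8 with voom (beside 5.19% of all tested genes) and 10 with only the groups compared. Distal against mid organoids in differentiation medium gave 1 with a pseudocount of 0.1, 1 with voom and 0 with only the groups compared. Leaving out 1 library gave 81 to 87 by medium in distal, 86 to 88 in mid and 57 to 77 in proximal organoids, 45 to 56 between distal and proximal organoids in differentiation and 14 to 24 in control medium, 54 to 57 and 18 to 25 between mid and proximal, 1 to 4 and 0 to 1 between distal and mid, and 11 to 20 in the interaction. The interaction gave 11 without proximal control replicate 2. Distal against mid gave 1 in control medium without distal control replicate 3, and in differentiation medium 4 without distal differentiation replicate 3 and 1 without mid differentiation replicate 1. Shares over all tested genes were computed for summed reads, voom, the replicate block and the fit without proximal differentiation replicate 1. Counts under the other alternatives are a description.

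Of 233 named values 184 kept their call under every alternative, 49 lost it under at least 1 and 0 changed sign. The fit with a replicate block gave 85, 90 and 76 called by medium in distal, mid and proximal organoids and 22 in the interaction. Of all tested genes it called 64.0%, 64.6% and 55.3% by medium and 9.22% in the interaction. It changed 1 named call, that of 5430427M07Rik in the interaction (adjusted p = 0.0502). Same-numbered libraries correlated from -0.387 to 0.542 in their deviations from the group means (median 0.107), with 23 of 45 pairs over 0.1, beside 20 of 90 pairs of different numbers (median -0.0629). A library correlated best with its own number in 24 of 45 comparisons with another group. In 13 of the 15 pairs of groups not every same-numbered pair correlated above 0.1, and whether the numbers pair those libraries is not known. The planned count tests (edgeR and DESeq2) were not run, because the deposited values are FPKM. Depth limits the lncRNAs with 0 reads to the bounds given.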
